A study of Sorghum bicolor with 4 samples.

Results

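The circadian clock genes and phytochromes of the sorghum stem were followed by 7 genes, chosen by gene ID from the 34129 distinct IDs of the deposited table. They are the clock genes LHY, TOC1, GI and PRR37 (the maturity locus Ma1) and the phytochromes PHYA, PHYB (Ma3) and PHYC (Ma5). The table gives IDs and no names, so each name rests on the ID given for it when the genes were selected, and no sequence was used to check it. Total RNA came from the middle internode of the stem of the sweet sorghum variety SSV84 (Sorghum bicolor), raised in an open field. The stages were booting, with 2 libraries, the milky stage, with 1, and physiological maturity, with 1. All groups shared the variety, the tissue and the field. Neither the number of plants behind a library nor the hour of harvest is given in the sources used here.

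In plants the clock is a loop of transcription factors that repress each other in turn over the day. In Arabidopsis, LHY, a MYB factor made around dawn, represses TOC1 and GI, which are made towards evening, and TOC1, a pseudo-response regulator, represses LHY in return. GI is a large protein that stabilises clock and photoperiod components, and PRR37 is a pseudo-response regulator that represses flowering of sorghum in long days. Phytochromes are red and far-red photoreceptors that pass light signals to the clock and to stem elongation and flowering. PHYA is known for responses to far-red light, and PHYB and PHYC for repression of sorghum flowering in long days.

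Expression is given as FPKM (fragment counts corrected for the length of the transcript and the size of the library), with 1 value made by the authors for each gene and stage. There is no column for a single library, so no SD, n or p-value can be given, no difference can be checked against replicates, and how far libraries or plants vary is not known. Transcripts of clock genes vary over the day, so a difference between stages and a difference between hours of harvest cannot be told apart. In whole tissue, fewer cells of a type and less RNA per cell cannot be told apart either. Sequencing depth is not stated, nor is the number of libraries that entered the milky and maturity values. Comparisons were made over the 18505 of 34458 rows that reached 1 FPKM in any stage. A row is called risen or fallen at a change of 1 or more in log2(FPKM + 1), and the added 1 understates the change of low values. Of the 7 genes, 6 passed the filter, and PRR37 did not.

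From booting to the milky stage, LHY rose, and it was the only one of the genes to pass the threshold, 1 of the 6 that passed the filter, against 10.7% of all expressed rows called in either direction. TOC1, GI and PHYC were lower at the milky stage by log2 differences of −0.93, −0.95 and −0.87, short of the threshold. From booting to maturity, LHY rose and GI and PHYB fell, 3 of the 6, against 14.3% of all rows (8.1% risen and 6.19% fallen). That excess of risen rows, 1499 against 1146, was smaller under 2 other scalings, with 1358 against 1265 by the median of ratios and 1268 against 1248 by quantiles, and it turned to 565 against 602 with a pseudocount of 5. From the milky stage to maturity LHY alone was called, 1 of the 6, against 9.25% of all rows, and that call was lost under some other settings. The median log2 difference of the 6 genes was −0.67 for milky against booting, −0.73 for maturity against booting and −0.06 for maturity against milky. Over all expressed rows the medians were −0.01, 0.04 and 0.06. They differed by level, with −0.28, −0.24 and 0.02 for rows whose mean reached 100 FPKM, as for LHY, GI and the row of PHYA. For rows with a mean from 10 to 100 FPKM, as for TOC1, PHYB and PHYC, they were −0.04, 0.004 and 0.05. At a looser limit of 1.5-fold in FPKM + 1, 4 of the 6 differed between booting and the milky stage (1 higher, 3 lower), where 27.4% of all rows did. At that limit 5 of the 6 differed between booting and maturity (32.2% of all rows), and 3 of the 6 between the milky stage and maturity (23.3%).

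**Figure D1:**
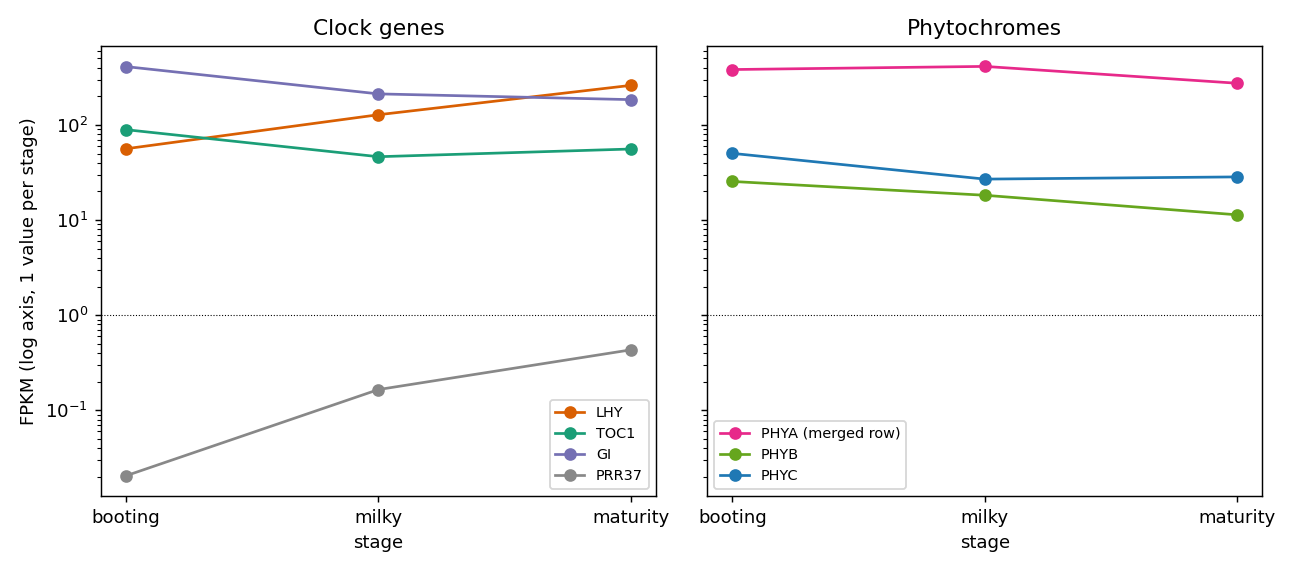
FPKM on a log axis at booting, the milky stage and maturity for the clock genes (left) and phytochromes (right). Each point is the authors' value for the stage, and the dotted line marks 1 FPKM. LHY goes up from 56.1 to 260 FPKM while GI goes down from 410 to 184 FPKM, and PRR37 stays under 1 FPKM.

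Among the clock genes, LHY (Sobic.007G047400, chromosome 7, 4745498 to 4758500 in the table's coordinates, build not given in the sources used here) had 56.1 FPKM in booting internodes, 128 in milky-stage ones and 260 in mature ones. Each stage was higher than the one before, by 2.28 times and then by 2.04 times in FPKM, and by 4.64 times over both steps. On the log2(FPKM + 1) scale the rises were 1.17, 1.02 and, over both steps, 2.19. From booting to maturity, a rise of 2.19 or more was seen in 1.48% of all expressed rows, and in 15 of the 1265 rows whose mean reached 100 FPKM, the level class of LHY. Rows that passed the threshold upward in both steps numbered 74, and 7 of them, LHY included, had a mean at or above the 148 FPKM of LHY. The later rise lay next to the threshold, and its log2 difference was 0.94 after rescaling by the median of ratios, 0.97 after quantile normalization and just under 1 (0.997) with a pseudocount of 5. A second annotated ID at the same locus, Sobic.007G047450, was listed at 0, 0.0585 and 0.835 FPKM.

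TOC1 (Sobic.004G216700, chromosome 4, 56625892 to 56628817) had 89.1 FPKM at booting, then 46.3 in the milky internode and 55.8 in the mature one. Its highest value was at booting, where LHY had its lowest. The milky value was 52.0% and the maturity value 62.6% of that at booting. The log2 differences, −0.93 for milky against booting, −0.67 for maturity against booting and 0.26 for maturity against milky, all stayed within the threshold. A log2 difference at least as far down as −0.93 was seen in 6.73% of expressed rows, so TOC1 lay toward the lower edge of the distribution in that step.

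GI (Sobic.003G040900, chromosome 3, 3821972 to 3830666) had 410 FPKM at booting, followed by 212 and 184 FPKM in the milky and mature internodes. It was the most abundant of the genes at booting, when 247 rows of the whole table were higher. The milky value was 51.7% of that at booting, −0.95 on the log2 scale. Over the whole span GI fell by 1.15 on the log2 scale, to 45.0% of its booting level. Rows as abundant as GI tended to be lower after booting as a class. Among those 1265 rows whose mean reached 100 FPKM, the median log2 difference was −0.28 for milky against booting and −0.24 for maturity against booting, and 11.1% fell in the latter. Quantile normalization, which gives all stages the same distribution of values, brought the difference of GI for maturity against booting to −0.90, short of the threshold.

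PRR37 (Sobic.006G057866, chromosome 6, 40304882 to 40316799) had 0.0205 FPKM at booting, followed by 0.165 and 0.432 FPKM. It was under 1 FPKM in every stage and was not tested against the threshold. Of the rows listed above 0, 4.34% lay below it at booting, 17.3% in the milky internode and 24.8% in the mature one. Its maturity value was 21.1 times its booting value, but the size on the log scale followed the pseudocount, with 0.49 at a pseudocount of 1, 2.14 at 0.1 and 0.11 at 5. Reads behind these values are unknown, and values this low may rest on few of them. The row carries the annotation's own ID rather than that of an assembled locus, and of the 10645 such rows only 53 reached 1 FPKM in a stage.

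Set beside each other within a stage, the clock genes changed their order. A ratio of FPKM within a stage does not move when a whole stage is rescaled by 1 factor. LHY stood at 0.630 of the level of TOC1 at booting, but at 2.76 times that level in the milky internode and 4.67 times in the mature one, a change of the ratio of 7.41 times. The ratio of LHY to GI was 0.137, 0.604 and 1.41 in the same order, a change of 10.3 times. LHY was thus below both genes in booting internodes, between them in milky ones and above both in mature ones. The ratio of GI to TOC1 moved far less, from 4.60 through 4.58 to 3.31. The steps are not independent of each other, since each shares a stage with the next.

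**Figure D2:**
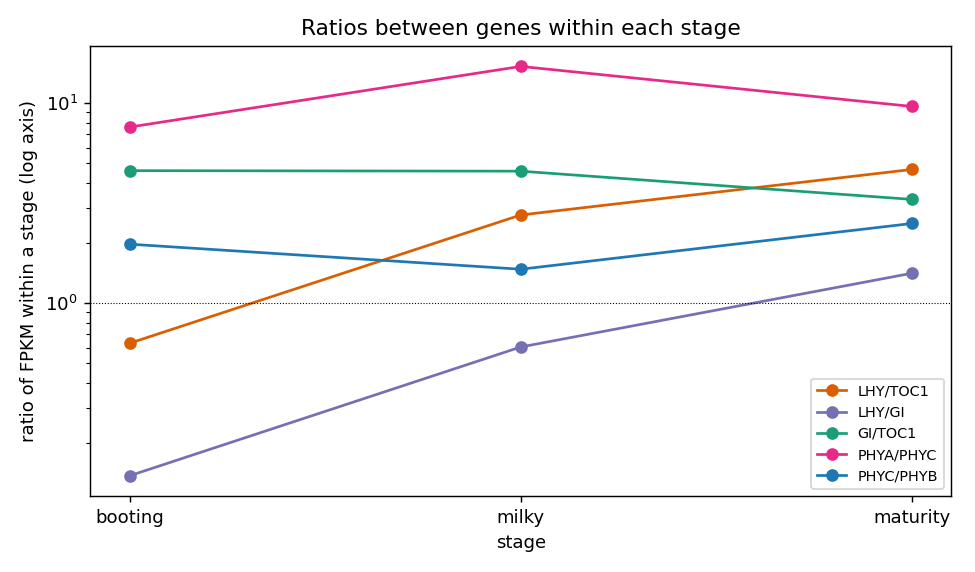
Ratios of FPKM between named genes within each stage, on a log axis, with the dotted line at equal levels. The 2 ratios with LHY on top, LHY/TOC1 and LHY/GI, climb across the stages from 0.630 to 4.67 and from 0.137 to 1.41, while GI/TOC1 stays between 3.31 and 4.60.

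Among the phytochromes, PHYA could not be measured alone. Its ID (Sobic.001G111500) shares a row with Sobic.001G111366 over chromosome 1, 8688611 to 8721152, a locus of 32542 bp, so the value belongs to the merged row and how much of it comes from PHYA is not known. The row had 382, 412 and 274 FPKM in the order of the stages. It was highest at the milky stage, and its log2 differences were 0.11 for milky against booting, −0.48 for maturity against booting and −0.59 for maturity against milky. None passed the threshold, and under quantile normalization the first moved to 0.39 and the second to −0.22. The table has 2 more rows at this locus, Sobic.001G111432 and an unannotated one, both listed at 0 in every stage. Merged rows numbered 1262 in the table, and 93.7% of them reached 1 FPKM in a stage, against 52.0% of rows with a single ID.

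PHYB (Sobic.001G394400, chromosome 1, 68034041 to 68043727) went from 25.5 FPKM to 18.2 and then 11.3 FPKM. Each stage was lower than the one before. From booting to maturity it fell by 1.10 on the log2 scale, to 44.6% of the booting value, and with a pseudocount of 5 the difference was −0.90, short of the threshold. The separate steps, −0.46 and −0.64, did not pass. PHYB was the lowest of the 6 genes over 1 FPKM in every stage. At booting 71.1% of expressed rows were lower, and at maturity 49.8%, so that PHYB went from the upper part of the distribution to its middle.

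PHYC (Sobic.001G087100, chromosome 1, 6748035 to 6753421) went from 50.2 FPKM in booting internodes to 26.9 and then 28.4 FPKM. Most of its difference lay in the first step, with a log2 difference of −0.87 for milky against booting and 0.07 for maturity against milky. Neither these nor the −0.80 for maturity against booting passed the threshold. The 2 later stages were close to each other, 28.4 against 26.9 FPKM. PHYC was above PHYB in every stage, by 1.97, 1.48 and 2.50 times in the order of the stages. PHYB made up 33.6%, 40.3% and 28.5% of the summed FPKM of both, and that sum went from 75.7 through 45.2 to 39.8 FPKM.

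**Figure D3:**
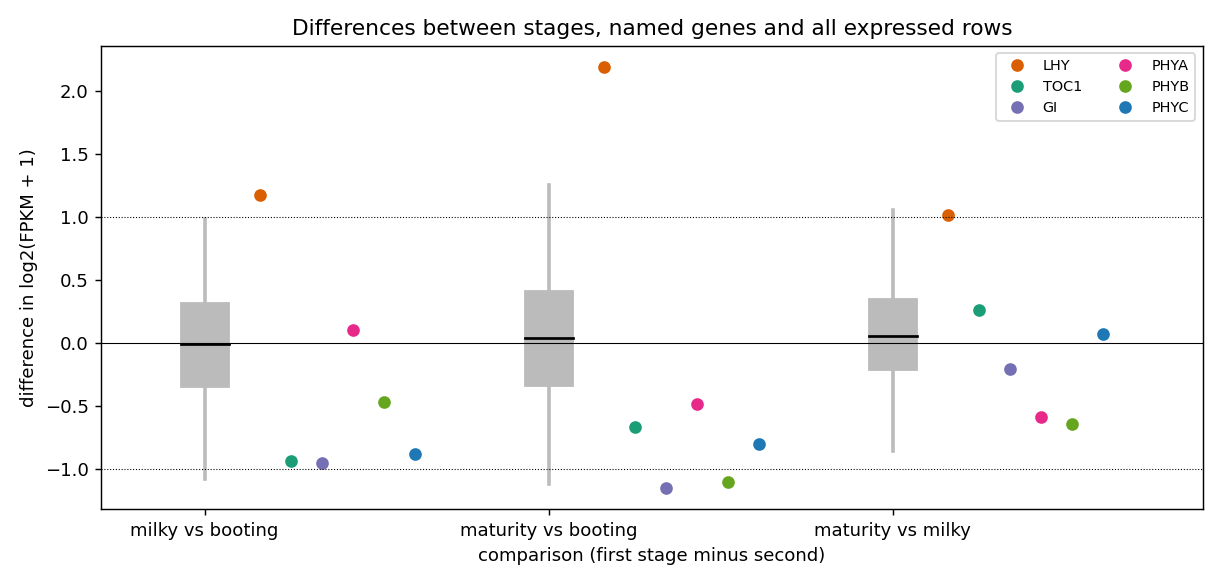
Differences in log2(FPKM + 1) between stages for the 6 genes that passed the filter (points), beside all expressed rows (black line, median; grey box, middle 50% of rows; grey line, 5th to 95th percentile). Dotted lines mark the threshold of 1. LHY lies above the 95th percentile in milky against booting (1.17 against 0.99) and in maturity against booting (2.19 against 1.26), and just below it in maturity against milky (1.02 against 1.06).

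By level, the genes ran GI, PHYA row, TOC1, LHY, PHYC, PHYB, PRR37 from high to low at booting. At the milky stage the order was PHYA row, GI, LHY, TOC1, PHYC, PHYB, PRR37, and at maturity PHYA row, LHY, GI, TOC1, PHYC, PHYB, PRR37. LHY moved from place 4 through 3 to 2, and GI from 1 through 2 to 3, while PHYC, PHYB and PRR37 kept places 5, 6 and 7. FPKM is per length, so levels of different genes may be compared, but with no spread known it cannot be said which neighbours in the order differ. The PHYA row and GI were near each other at booting, at 382 and 410 FPKM, as were the PHYA row and LHY at maturity, at 274 and 260 FPKM.

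By direction over both steps, with no threshold, LHY went up at both steps, as did 22.3% of expressed rows. PRR37 also went up at both, but with every value under 1 FPKM, so it is not one of the expressed rows. GI and PHYB went down at both, as did 17.2%. TOC1 and PHYC went down and then up, the most frequent order at 33.5%, and the PHYA row went up and then down, as did 26.7%. The distance between 2 genes, taken over both steps on the log2(FPKM + 1) scale, was smallest for TOC1 and PHYC, at 0.20, then for GI and PHYC, at 0.28. LHY was farthest from GI, at 2.45, and at least 1.93 from each of the other genes that passed the filter. With 3 stages this measure rests on 2 steps and describes only these values.

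**Figure D4:**
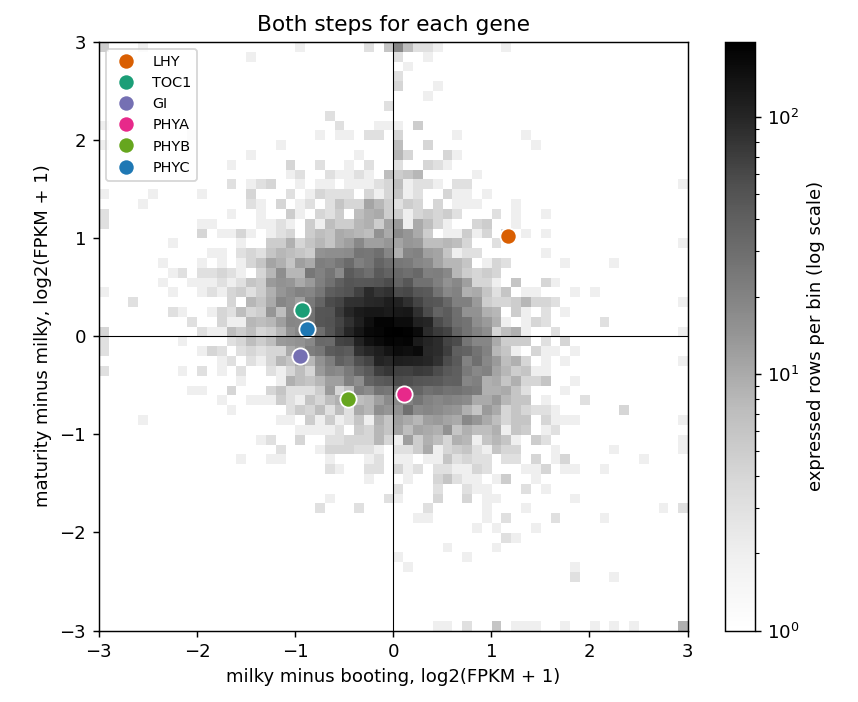
The log2(FPKM + 1) difference of milky minus booting (x axis) and of maturity minus milky (y axis) for the 6 genes that passed the filter, over the density of all expressed rows (grey, log scale; rows beyond 3 on either axis are drawn at the edge). LHY lies at upper right (1.17 and 1.02), and TOC1, PHYC and GI lie close together at left.

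The same distance was used to find the rows with a single ID, at 1 FPKM or more in every stage, that were most like each gene over the 3 stages. Near LHY there were few, since 14 of 14102 rows lay within 0.25 of it. The nearest was Sobic.001G423600 (chromosome 1, 70389354 to 70390794), at a distance of 0.08, with 1.85, 5.13 and 11.7 FPKM. Next was Sobic.002G373100 (chromosome 2, 73117404 to 73119689), at a distance of 0.11, with 2.84, 7.99 and 18.4 FPKM. Both were far less abundant than LHY, so the added 1 understates their rises more than that of LHY. For the others more rows lay within 0.25, with 341 (2.42%) for TOC1, 163 (1.16%) for GI, 134 (0.950%) for PHYB, 383 (2.72%) for PHYC and 516 (3.66%) for the PHYA row, against 0.0993% for LHY. PRR37 had 1435, but its differences of 0.19 and 0.30 owe their small size to the pseudocount. Its nearest rows were Sobic.002G030400 and Sobic.002G386200.

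The row nearest to TOC1 was Sobic.010G067700 (chromosome 10, 5433502 to 5438491), with 61.9, 31.7 and 38.2 FPKM at a distance of 0.01, followed by Sobic.001G517500. Nearest to GI were Sobic.005G018700 and Sobic.002G216500, both from about 5.2 FPKM at booting to 1.8 at maturity, well below the level of GI. At such levels the added 1 understates the fall more than it does for GI. Nearest to PHYB was Sobic.009G033600 (chromosome 9, 3045193 to 3048685), with 1837, 1321 and 850.3 FPKM, followed by Sobic.009G006000. Sobic.009G209200 and Sobic.007G200000 were nearest to PHYC, and Sobic.007G192200 and Sobic.009G086900 to the PHYA row. The table names none of these rows.

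Rows beside LHY on the chromosome that passed the filter did not rise with it. Rows overlapping the locus of a gene were not counted, among them Sobic.007G047450 at LHY, under 1 FPKM in every stage. Among the 3 nearest rows with a gene ID on each side of LHY, 3 passed the filter and none of these rose. From booting to maturity 8.1% of all expressed rows rose, so 3 rows are too few to show a departure from that share. The first row before LHY, Sobic.007G047300, went from 1447 through 1067 to 671 FPKM, and it fell by 1.11 on the log2 scale from booting to maturity, the opposite direction to LHY. Beside GI, Sobic.003G040800 had 52.3, 21.1 and 22.4 FPKM, and it fell from booting to both later stages, while the row on the other side, Sobic.003G041000, at a distance of 540 bp, had 49.3, 46.7 and 38.1 FPKM. Beside PHYC, Sobic.001G087000, at a distance of 594 bp, had 18.9, 18.6 and 22.0 FPKM, while Sobic.001G086800, the third row on that side, rose by 1.02 on the log2 scale from booting to maturity, from 9.31 to 20.0 FPKM. A rise over the same span was also seen beside the PHYA row, where Sobic.001G111700 had 0.861, 4.89 and 9.50 FPKM (2.50). Beside TOC1, 1 row rose over that span and 2 fell. The row that rose, Sobic.004G216600, had 8.57, 16.9 and 23.2 FPKM (1.34). Those that fell were Sobic.004G216300 (−2.22) and Sobic.004G216900 (−1.43), the same direction as TOC1 (−0.67, within the threshold). Of 42 such rows around the 7 genes, 25 passed the filter. Of these 25, 5 changed from booting to the milky stage (2 rose, 3 fell), where 10.7% of all expressed rows did. From booting to maturity 7 changed (3 rose, 4 fell), where 14.3% of all rows did, and from the milky stage to maturity 0 changed, where 9.25% did. These counts follow the rule of size and have no test.

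**Figure D5:**
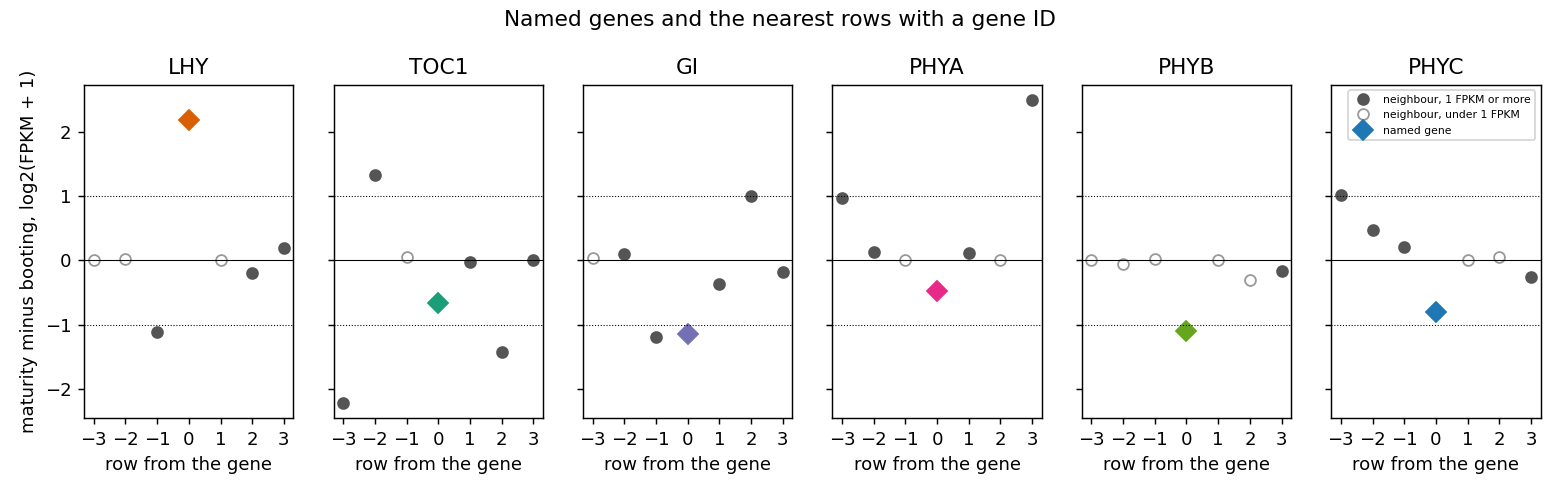
The maturity minus booting difference in log2(FPKM + 1) for 6 named genes (diamonds) and the 3 nearest rows with a gene ID on each side, by their order along the chromosome (filled, 1 FPKM or more in a stage; open, less). Dotted lines mark the threshold of 1. LHY stands at 2.19 while its neighbours that passed the filter lie between −1.11 and 0.20. Rows overlapping the locus of a named gene are not drawn.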

How the data were processed

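Stranded libraries of total RNA were sequenced, per the labels' protocols. Cuffdiff, HISAT2 2.0.5, Bowtie2 2.2.9 and cutadapt 1.8.1 are named in the submitters' processing notes, and their roles, the genome build and the depth remain unstated there. The authors deposited FPKM values, 1 per stage, per the file headers. How libraries were combined is not given. From these, differences in log2(FPKM + 1) were computed for rows with at least 1 FPKM in a stage, and called at 1 or more. The code was tested on simulated data. The genes, lists and rules were chosen with earlier results of these data known. Named besides the selected genes were the 2 rows nearest in pattern to each and, by a rule added later, chromosomal neighbours. The 5 lists of further clock and light genes and 4 lists of tissue markers, set out by description, could not be used: 0 of the table's IDs stand as written in the RefSeq table (Sorghum_bicolor_NCBIv3), which has no descriptions, so the tissue label was not checked against markers. Literature IDs of further photoperiod genes, planned for the case without descriptions, were not used. Promoter and protein sequences were not analysed here. Python 3.11.15, numpy 2.4.6, pandas 2.3.3 and matplotlib 3.10.9 were used.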

Additional observations from a re-analysis of the deposited data

How the results depend on the processing

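Of the 6 genes that passed the filter, every difference kept its sign under the 9 alternatives run. The rest of the 9 alternatives run changed the pseudocount, the filter or the limit, none of which can change a sign. The number of the 6 genes called was 1 (milky vs booting), 3 (maturity vs booting) and 1 (maturity vs milky). For maturity vs milky it was 0 with a pseudocount of 5, with the median of ratios, with quantile normalization and at a log2 difference of at least 2, and 3 at 1.5-fold. For milky vs booting it was 0 at a log2 difference of at least 2 and 4 at 1.5-fold, and for maturity vs booting 1 and 5. The last comparison also gave 2 with a pseudocount of 5 and 2 with quantile normalization.

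All expressed rows called numbered 1986, 2645 and 1712 in the same 3 comparisons, out of 18505. Counts were close to these after rescaling, with 2000, 2623 and 1690 by the median of ratios and 1871, 2516 and 1728 by quantile normalization. In that order they numbered 847, 1167 and 668 with a pseudocount of 5, 1265, 1529 and 955 at a mean of at least 5 FPKM, 308, 567 and 341 at a log2 difference of at least 2, and 5076, 5960 and 4309 at 1.5-fold. In the same order they numbered 3182, 3853 and 2722 with a pseudocount of 0.1 and 3360, 3912 and 2806 without one. These moves follow from the weight of low values, the rows entered or the size required, and the cause of the changes after rescaling was not tested.

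No paired analysis was possible, because the milky stage and maturity have 1 library each. Leaving out a booting library was not run because the columns carry no library numbers. The promoter window was not run because no promoter was at hand.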
